A study of Homo sapiens with 6 samples.

Results

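The chromosome 16 block from 85 to 86 Mb (build hg19) held 136 of the 61250 distinct regions in 4 peak lists from the human small cell lung cancer lines H524 and H82. The members were chosen by position: every listed region that touches this block was taken, with identical intervals of a list merged into 1 region. There were 96 of 20593 regions for NeuroD1 in H524, 10 of 3854 for NeuroD1 in H82, 19 of 18595 for H3K4me3 in H524 and 11 of 18208 for H3K4me3 in H82. The block had been picked because it held many H524 NeuroD1 regions, so that count is a description and supports nothing. Positions of 3 genes came with the selection. KIAA0513 spans 85.061 to 85.128 Mb, COX4I1 spans 85.833 to 85.841 Mb and IRF8 spans 85.932 to 85.956 Mb.

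Both lines are established cultures and were profiled untreated by chromatin immunoprecipitation sequencing. Each had 1 library with an antibody against NeuroD1, 1 with an antibody against H3K4me3 and 1 input library, 6 in all. With 1 library per antibody and line there is no spread between replicates, so no test was made and no p-value is given. Exact Clopper-Pearson 95% intervals stand beside the shares that are compared. They cover counting error only, and neighbouring regions are not independent draws. Reads per library are not in the lists, so the depth behind them is unknown. The files hold no expression values, so the identity of the lines could not be checked against marker genes.

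NeuroD1 is a basic helix-loop-helix transcription factor that pairs with E-proteins and binds the E-box motif CANNTG, in which N is any base. It drives neuronal and endocrine differentiation and marks a neuroendocrine subtype of small cell lung cancer. Factors of this family bind distal enhancers as well as promoters, whereas H3K4me3, trimethylation of histone H3 at lysine 4, is found mainly at active promoters. IRF8 is an interferon regulatory factor of myeloid and B cells, COX4I1 encodes a subunit of cytochrome c oxidase, and KIAA0513 is a little-studied gene expressed in brain. In RefSeq's gene order on GRCh38.p14, 5 protein-coding genes lie between KIAA0513 and COX4I1, namely CIBAR2, GSE1, GINS2, C16orf74 and EMC8. GSE1, found in protein complexes with histone deacetylases, is the longest of the genes listed there. GINS2 belongs to the replicative helicase and EMC8 to a complex that inserts proteins into the endoplasmic reticulum membrane. No protein-coding gene is listed between COX4I1 and IRF8, which are next to each other apart from pseudogenes. Positions of the 5 other genes in hg19 were not used here, so no NeuroD1 region is assigned to them.

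The promoters of KIAA0513 and COX4I1 are shown because the H3K4me3 list of H524 has a region at each of these gene starts and the NeuroD1 lists have none there. The same held for IRF8, whose promoter is not printed because the promoter sequences used had no entry at its RefSeq start. Each run holds 300 bases of the plus strand, 250 before and 50 after the RefSeq start in GRCh38.p14, with every CANNTG in capitals. The KIAA0513 window is chr16:85027545-85027844 and the COX4I1 window is chr16:85799445-85799744.
KIAA0513: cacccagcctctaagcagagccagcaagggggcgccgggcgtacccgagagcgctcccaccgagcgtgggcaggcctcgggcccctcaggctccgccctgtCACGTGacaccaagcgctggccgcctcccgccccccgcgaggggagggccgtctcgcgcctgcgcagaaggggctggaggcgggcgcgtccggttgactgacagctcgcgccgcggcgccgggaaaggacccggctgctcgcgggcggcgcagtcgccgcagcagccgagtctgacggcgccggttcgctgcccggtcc
COX4I1: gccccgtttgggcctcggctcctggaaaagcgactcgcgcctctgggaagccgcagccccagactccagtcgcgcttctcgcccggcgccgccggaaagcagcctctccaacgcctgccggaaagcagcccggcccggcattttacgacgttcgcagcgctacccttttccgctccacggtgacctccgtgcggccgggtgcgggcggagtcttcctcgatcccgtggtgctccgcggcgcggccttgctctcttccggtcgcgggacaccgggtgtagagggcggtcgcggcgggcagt

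The KIAA0513 window has 1 match, CACGTG, and the COX4I1 window has none. Neither window holds CAGCTG or CAGATG, the forms of the E-box that were searched on both strands and that are contained in CANNTG. Of 35114 promoter windows of this length in the table, 68.7% hold CANNTG, 17.9% hold CAGCTG and 14.7% hold CAGATG. G and C make up 76.7% of the KIAA0513 window and 71.0% of the COX4I1 window. The matches describe letters and not binding.

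The H524 NeuroD1 regions lay almost entirely before COX4I1, most of them between KIAA0513 and COX4I1, and none within 10 kb of IRF8. Of the 96 regions, 95 (99.0%) were between 85045148 and 85793667, before the start of COX4I1, and they covered 9.46% of that 748.5 kb stretch. The interval between KIAA0513 and COX4I1, 705 kb long, held 90 of them (93.8%), or 12.8 per 100 kb. Within the span of KIAA0513 there were 4 regions, and 1 region lay before it. None lay over COX4I1, between COX4I1 and IRF8 or over IRF8. The last of the 96 was a narrow region after IRF8, from 85997387 to 85997715, with a score at the 6.06 percentile of its list. A percentile here is the percent of the regions of a list that have a lower score.

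**Figure D1:**
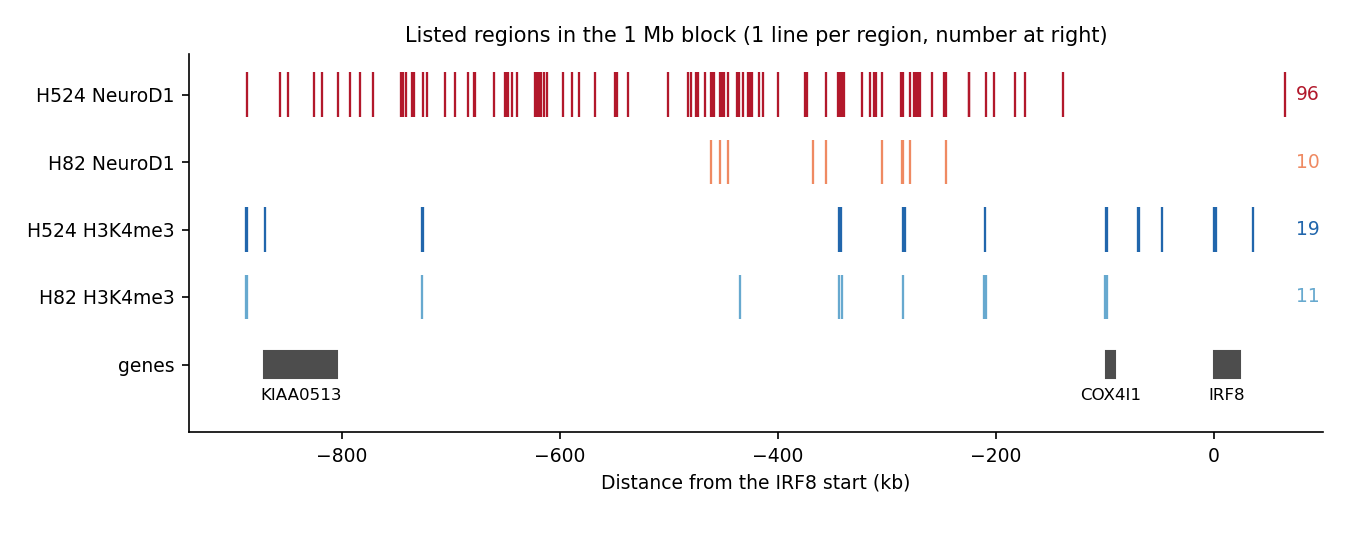
Listed regions of the block, 1 vertical line per region at its midpoint, by distance in kb from the IRF8 start, for H524 NeuroD1, H82 NeuroD1, H524 H3K4me3 and H82 H3K4me3 from top to bottom. The numbers at the right are regions per list (96, 10, 19 and 11), and the bars at the bottom are the spans of the 3 genes. The NeuroD1 lines stop before COX4I1 except for 1 region of H524 after IRF8.

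The distance from each gene to the nearest NeuroD1 region differed widely. For IRF8, the nearest H524 NeuroD1 region before the gene ended 138.3 kb away and the nearest one after it began 41.4 kb away, while in H82 these distances were 245.4 kb and 1428.8 kb. For COX4I1, the nearest H524 region before the gene was 39.3 kb away and the nearest H82 region 146.4 kb. For KIAA0513, H524 had 4 regions inside the gene, and its nearest H82 region lay 342.3 kb past the gene's end.

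The 4 regions inside KIAA0513 were at 85074323 to 85076502, 85082481 to 85082866, 85106614 to 85106937 and 85113190 to 85115055. The last of these was the strongest, with rank 605 in the H524 list, 4 summits and a width of 1.87 kb. The others were at percentiles 63.8, 24.0 and 50.3. None of the 4 lay over the gene start, given to 1 kb, and the nearest was at least 12.3 kb from it. A 5th region within 10 kb of the gene began 0.315 kb past its given end. That distance is smaller than the 1 kb to which the end is given.

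Counted per 100 kb, density was nearly even over most of the occupied stretch, though spacing within the bins was uneven. In bins of 100 kb from 85 to 86 Mb, the H524 NeuroD1 list had 3, 12, 14, 14, 16, 14, 15, 7, 0 and 1 regions. The 6 bins from 85.1 to 85.7 Mb thus held 12 to 16 regions each and 85 of the 96 regions (88.5%). The same bins had 0, 0, 0, 0, 3, 2, 5, 0, 0 and 0 regions of the H82 NeuroD1 list. Among 10535 bins of 100 kb with an H524 NeuroD1 region the median was 1.0 region and the highest 18. This block held 6 of the 59 bins with at least 10 regions and 6 of the 33 with at least 12. Of the 18 bins with at least 14 regions it held 5. These counts restate the choice of the block and add no support.

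The block held more H524 NeuroD1 regions than any other block of 1 Mb. It had 96 regions, against 56 in the block that followed and a median of 6.0 over 2508 blocks with a region of that list. The 96 regions were 0.466% of the H524 list (95% interval 0.378 to 0.569), and 11.0% of the 875 regions of that list on chromosome 16. In H82 the block had 10 regions, 0.259% of the list (0.124 to 0.477), and shared rank 17 with other blocks among 1521 blocks, the highest of which had 29. The number in the block was 9.6-fold higher in H524 than in H82, while the whole list was 5.34-fold longer. Relative to list length the block was thus 1.80-fold higher in H524, with overlapping counting intervals. The block was picked by its H524 count, so this comparison of the lines is a description and adds no support.

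**Figure D2:**
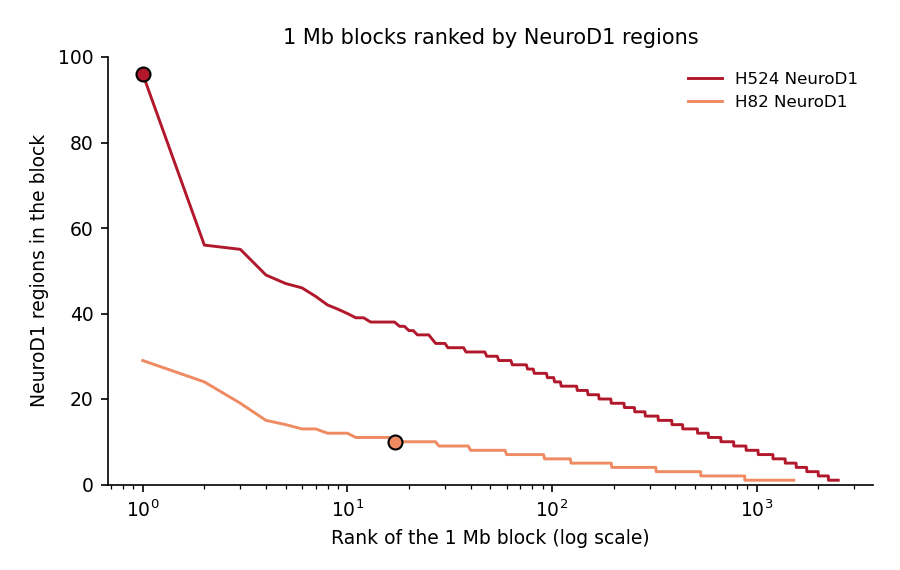
Blocks of 1 Mb in order of their number of NeuroD1 regions, with the rank on a log axis and the number of regions on the vertical axis, for H524 and H82. The circles mark the chromosome 16 block, with 96 regions at rank 1 in H524 and 10 regions at rank 17 in H82.

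With the H524 list limited to its 3854 highest-scoring regions, the length of the H82 list, the block kept 27 regions and had rank 2, after 32 regions on chromosome 8 from 128 to 129 Mb. The most similar blocks of the full list were on chromosome 20 from 20 to 21 Mb and on chromosome 17 from 71 to 72 Mb, with 56 and 55 H524 NeuroD1 regions. The chromosome 16 block covered more DNA with NeuroD1 regions, 71.1 kb against 44.2 kb and 35.9 kb. The median percentile by score was 53.2 in the chromosome 16 block, lower than 65.8 in the chromosome 20 block and 56.2 in the chromosome 17 block. Shared with H82 were 9 of 96 regions (9.38%, 4.38 to 17.1), against 3 of 56 (5.36%, 1.12 to 14.9) and 3 of 55 (5.45%, 1.14 to 15.1), and these intervals overlapped.

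Neighbouring H524 NeuroD1 regions in the block were about 4 kb apart. The median gap from the end of a region to the start of the next was 4.39 kb over 95 gaps (exact interval of the median 2.46 to 6.84 kb), and the middle part of the gaps, between the quartiles, ran from 1.04 to 10.8 kb. The median gap was 25.3 kb over chromosome 16 and 42.9 kb over the whole list. Gaps of up to 10 kb made up 67 of 95 (70.5%) in the block, against 26.3% of the 20570 gaps of the list, and 24 gaps were 1 kb or less. Closer spacing follows from the count by which the block was chosen, so these values describe it and add no support.

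**Figure D3:**
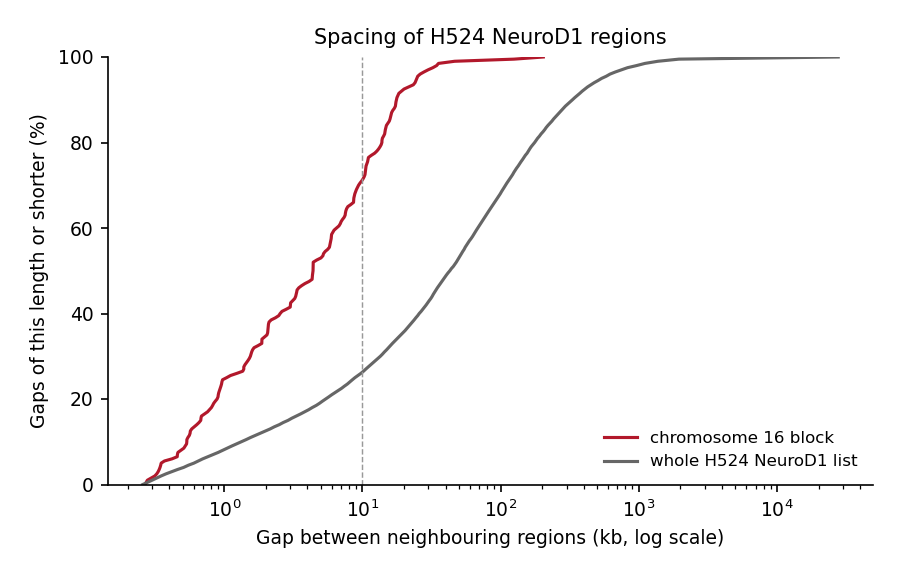
Percent of gaps between neighbouring H524 NeuroD1 regions that are of a given length or shorter, against gap length in kb on a log axis, in the chromosome 16 block and in the whole list. The dashed line marks 10 kb, below which lie 70.5% of the gaps in the block and 26.3% of the gaps in the list.

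The longest gap, 203.7 kb from 85793667 to 85997387, contained COX4I1 and IRF8. The next were 36.4 kb from 85394626 to 85431050, 34.2 kb from 85759079 to 85793251 and 28.9 kb from 85045407 to 85074323. The longest 3 were the only gaps over 30 kb. The gap of 36.4 kb divided the occupied stretch between KIAA0513 and COX4I1 into a part without any H82 NeuroD1 region and a part that contained all 10.

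When regions up to 10 kb apart were joined, the 96 regions formed 29 clusters, of which 10 were single regions and 19 held 86 regions together. The cluster from 85449075 to 85519817 had 21 regions over 70.7 kb. It was the largest of the 15188 clusters of the H524 list, of which 3417 held 2 or more regions, both in span and in number of regions. The cluster that followed in number, on chromosome 12 from 3310953 to 3361976, had 15 regions. By the length that its regions covered, 18.1 kb or 25.6% of its span, the chromosome 16 cluster had rank 3. The block was chosen for its many H524 NeuroD1 regions, so these cluster ranks are descriptions and add no support. In the same span H82 had 3 NeuroD1 regions and 1 H3K4me3 region, and H524 had no H3K4me3 region.

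The 21 regions of that cluster had very unequal scores. The strongest, from 85470134 to 85471517, had rank 232 in the list with a score of 29.4. The weakest, from 85480713 to 85481207, had a score of 1.34 and rank 20442, close to the end of the list. The widest region of the whole block was the last of this cluster, from 85516970 to 85519817, which was 2.85 kb wide with 6 summits and had rank 1237.

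Other clusters were smaller. The cluster from 85186154 to 85210320 had 8 regions, and those from 85271801 to 85293925, 85308388 to 85321115 and 85644271 to 85662575 had 7 regions each. The 2 clusters from 85271801 and 85308388 lay in the part with no H82 region, and the last held 3 shared regions, among them the strongest region of the block.

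By score, the H524 NeuroD1 regions of the block ranged over almost the whole list. Their percentiles ran from 0.180 to 99.7 with a median of 53.2 (exact interval 40.7 to 63.8), and 54 of 96 (56.2%) were at or above the median score of the list, against 53.2% of the list. Among the top 10% of the list by score, ties included, were 20 of 96 (20.8%, 13.2 to 30.3), against 10.1% of the list, and 20 of 96 (20.8%) had several summits, against 12.1% of the list. The most similar blocks, on chromosomes 20 and 17, had 6 of 56 and 11 of 55 regions in the top 10% of the list, and 20 of 56 (35.7%) and 12 of 55 (21.8%) with several summits. The intervals of both shares in the chromosome 16 block overlapped those of the other two blocks. The median width was 545.5 bp in the block and 470.0 bp in the list.

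The highest-scoring H524 NeuroD1 region of the block was at 85651953 to 85653680, with rank 60, a score of 47.3 and 3 summits. It was followed by 85470134 to 85471517 (rank 232), 85684944 to 85686706 (rank 287), 85384062 to 85385049 (rank 422) and 85113190 to 85115055 (rank 605). Ranks 6 to 10 of the block were at 85320212 to 85321115 (rank 770), 85673186 to 85674022 (rank 925), 85253875 to 85254354 (rank 1036), 85485520 to 85486401 (rank 1146) and 85558565 to 85559213 (rank 1193). The 10 were spread from the KIAA0513 gene to 85686706, and H82 had a NeuroD1 region at 4 of them.

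**Figure D4:**
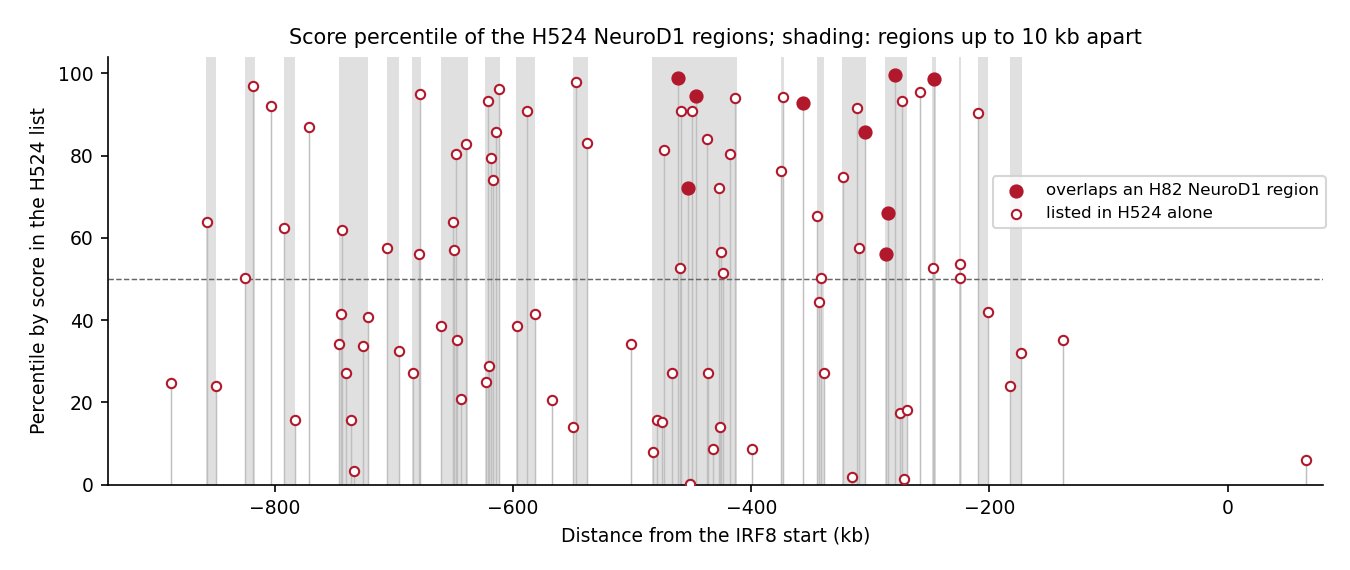
Percentile by score in the H524 list for the 96 H524 NeuroD1 regions of the block, by distance in kb from the IRF8 start. Filled points are the 9 regions that overlap an H82 NeuroD1 region, open points are regions listed in H524 alone, grey bands are clusters of regions up to 10 kb apart, and the dashed line is the 50th percentile. The filled points lie in the upper part of the plot, none below percentile 56.2.

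Few of the H524 regions were shared, but almost all of the H82 regions were. An H82 NeuroD1 region overlapped 9 of the 96 H524 regions (9.38%, 4.38 to 17.1), against 9.98% of the whole list. From the side of H82, 9 of 10 regions overlapped an H524 region (90.0%, 55.5 to 99.7), against 53.6% of the whole list. With the H524 list limited to the length of the H82 list, 6 of 27 regions were shared (22.2%, 8.62 to 42.3), against 21.7% of the limited list. In the block, the share of H524 regions found in H82 was near that of the list. The H82 share is a description only, since the block was chosen for its many H524 regions and an H82 region among many H524 regions has more of them to overlap.

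The H82 regions and with them the shared regions lay in a 216.3 kb stretch from 85470282 to 85686624. Of the 39 H524 regions in this stretch 9 were shared (23.1%, 11.1 to 39.3), against 9.98% of the whole list. The ends of the stretch are the first and last H82 regions, so none of the 57 H524 regions outside it could be shared. The same cut raises the share inside by construction, so that share is a description only. H82 had no listed NeuroD1 region over or near KIAA0513, nor in the first 4 bins of 100 kb, where H524 had 43 of its 96.

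The 9 shared H524 regions had percentiles from 56.2 to 99.7 with a median of 92.7, while the 87 regions of H524 alone ran from 0.180 to 97.9 with a median of 50.3. The shared regions were wider, with a median of 1384 bp against 497 bp, and 5 of 9 had several summits against 15 of 87. These medians describe the regions and carry no interval. Overlap required 1 bp, so a wider region has more bases with which to meet it. Values for shared and unshared regions of the whole list are not given here. The strongest region of the block, of rank 60, overlapped the H82 region from 85652587 to 85653417, which had rank 1174 in H82. The H524 region of rank 232 overlapped the highest-ranked H82 region of the block, from 85470282 to 85471410, which had rank 116, a score of 14.7 and 2 summits. The midpoints of that pair were 20 bp apart.

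The other shared pairs followed the same layout. The H524 region of rank 287 overlapped the H82 region from 85686059 to 85686624, of rank 707. The H524 region from 85627063 to 85627942, of rank 2893, overlapped the H82 region from 85627289 to 85627763, also of rank 707. The H524 region of rank 1146 overlapped the H82 region from 85485730 to 85486177, of rank 2152, with midpoints 7 bp apart. The H524 region from 85574932 to 85576664, of rank 1487, overlapped the H82 region from 85575894 to 85576214, and that from 85478707 to 85479781, of rank 5740, overlapped the H82 region from 85478700 to 85479184.

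The last pairs were neighbours. H524 regions from 85644271 to 85645806 (rank 9011) and from 85646482 to 85646813 (rank 6984) overlapped the H82 regions from 85645451 to 85646102 and from 85646528 to 85646813. The second of these H82 regions had rank 3680, near the end of its list. In 7 of the 9 pairs the H82 region lay wholly inside the H524 region, and the midpoints were 7 to 738 bp apart with a median of 185 bp. The H82 region without a counterpart, from 85563694 to 85563999, had rank 3436 and lay 4.48 kb from the nearest H524 region.

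H3K4me3 was listed in the block with 19 regions in H524 and 11 in H82, which ranked the block 165 among 2374 blocks and 478 among 2302 blocks. Relative to list length the number was 1.69-fold higher in H524, with overlapping intervals (0.0615 to 0.160% against 0.0302 to 0.108% of the list). None of the 19 H524 regions and none of the 11 H82 regions was in the top 10% of its list by score, against 10.0% of each whole list, which allows shares of up to 15.8% and 27.3% if 3 counts are taken as the limit of a count of 0, and of up to 17.6% and 28.5% by the exact interval. Their median percentiles were 37.0 in H524 and 58.9 in H82. Overlap between the lines was found for 11 of 19 H524 regions (57.9%, 33.5 to 79.7), against 52.9% of the list, and for 9 of 11 H82 regions (81.8%, 48.2 to 97.7), against 52.4% of the list.

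Joined where they were up to 2 kb apart, the H3K4me3 regions of both lines made 12 places. Of these, 6 had the mark in both lines, 5 in H524 alone and 1 in H82 alone. The places of both lines were at 85044125 to 85045801, 85205313 to 85206569, 85587483 to 85591117, 85645602 to 85648899, 85720566 to 85722821 and 85832151 to 85833854. The first lies before KIAA0513, towards its RefSeq neighbour ZDHHC7, a palmitoyltransferase gene. The last lies at the start of COX4I1, whose nearest protein-coding neighbour in RefSeq, EMC8, is on the opposite strand.

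At the COX4I1 start, given to 1 kb, H524 had H3K4me3 regions from 85832427 to 85833061 and from 85833392 to 85833811, 0.33 kb apart. The second was the highest-scoring H3K4me3 region of H524 in the block, with a score of 7.19 and rank 2801. H82 had regions from 85832151 to 85832658 and from 85833329 to 85833854, the second with a score of 5.97 and rank 4335. The nearest H524 NeuroD1 region was 38.5 kb from this place.

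At the IRF8 start the mark was listed in H524 alone and with low scores. The H524 regions there, from 85931854 to 85932568 and from 85933269 to 85933611, had scores of 2.08 and 1.41 and percentiles of 17.0 and 1.18. In H82 the H3K4me3 region nearest to the start was 98.1 kb away. At the KIAA0513 start, H524 had 1 region, from 85061421 to 85061921, with a score of 3.48 at percentile 43.5, and the nearest H82 region was 15.2 kb away. Of the H3K4me3 places in H524 alone, 4 of 5 lay after COX4I1, including both regions at IRF8, and their highest percentiles ran from 11.1 to 17.0.

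The remaining high-scoring H3K4me3 regions were also at places of both lines. In H82 the strongest were at 85722165 to 85722821 (rank 2718), 85589966 to 85591117 (rank 2848) and 85645602 to 85648631 (rank 3952), the last of which was 3.03 kb wide, and at the COX4I1 start, followed by 85587483 to 85589095 (rank 5042). In H524 those after the COX4I1 region of rank 2801 were at 85044191 to 85044834 (rank 3039), the other COX4I1 region (rank 4215), 85206092 to 85206569 (rank 4868) and 85045185 to 85045801 (rank 4971).

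Most NeuroD1 regions of the block were away from the mark. In H524, 6 of 96 overlapped H3K4me3 of H524 (6.25%, 2.33 to 13.1), against 16.0% of the list, and 8 of 96 (8.33%, 3.67 to 15.8) overlapped H3K4me3 of H82, against 15.6% of the list. The upper end of the first interval was below the list value, and that of the second was not. These intervals treat neighbouring regions as independent draws, which they are not. The block was also chosen for its many H524 NeuroD1 regions, so both shares are descriptions only. Over all 96 regions the median distance to H3K4me3 of H524 was 49.3 kb, against 40.4 kb over the list, and 48 of 96 (95% interval 39.6 to 60.4%) lay over 50 kb away, against 45.7% of the list. The largest distance was 187.1 kb. In H82, 2 of 10 regions overlapped H3K4me3 of H82 (95% interval 2.52 to 55.6%), against 29.4% of the list, and none lay over 50 kb away, which allows a share of up to 30.0% by the limit of 3 counts and up to 30.8% by the exact interval, against 31.6% of the list.

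The 6 H524 regions on H3K4me3 of H524 were at 85045148 to 85045407, 85206093 to 85206453, 85587083 to 85587934, 85590560 to 85590935, 85646482 to 85646813 and 85722486 to 85722858. They belonged to 5 of the 6 places marked in both lines, the exception being the COX4I1 start, and to none of the places of 1 line. Most places of H524 alone lay after COX4I1, where H524 had only 1 NeuroD1 region to meet them. Shares over the whole list for places of both lines and of 1 line are not given here. From the side of the mark, 6 of 19 H524 H3K4me3 regions (31.6%, 12.6 to 56.6) overlapped H524 NeuroD1, against 18.0% of the list. That share is a description only, since a marked region in a block chosen for its many NeuroD1 regions has more of them to overlap. The highest-scoring of the 6, at 85722486 to 85722858, had rank 1970 in the H524 NeuroD1 list, and the lowest, at 85045148 to 85045407, had rank 15487. They were narrow, with a median width of 367 bp, against 558 bp for the 90 regions off the mark, and 1 of them was shared with H82. At that place, 85645602 to 85648899, NeuroD1 and H3K4me3 were listed in both lines.

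On the chromosome 20 and 17 blocks, 8 of 56 (14.3%, 6.38 to 26.2) and 8 of 55 (14.5%, 6.50 to 26.7) H524 NeuroD1 regions overlapped H3K4me3, and their intervals overlapped that of the chromosome 16 block. With 13 and 10 H524 H3K4me3 regions, those blocks held fewer than the 19 of the chromosome 16 block. Of these 19, however, only 9 lay between KIAA0513 and COX4I1, where 90 of the 96 H524 NeuroD1 regions lay.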

How the data were processed

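NeuroD1 and H3K4me3 were profiled by ChIP-seq in H524 and H82 cells, with 1 library per antibody and line. Per the submitters' processing notes, which give no roles, MACS2 2.1.1, Bowtie 1.1.2, Picard 1.118, SAMtools 1.9, Trimmomatic 0.38, bcl2fastq 1.8.4, R 3.5.1 and ChIPseeker 1.18.0 were used with build hg19. Settings, duplicate handling and use of the input libraries, which were not analysed here, are not stated in these sources. Without matched input, copy number would enter a list, and deeper sequencing would lengthen it.

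The authors' deposited score was taken to be −log10 of an adjusted p-value, because the lowest scores were just above 1.301, the value for 0.05. No header states the unit. It ranks regions within a list only. Entries with the same interval, 1 per summit, were merged with the highest score. Coordinates are 1-based. Overlap required 1 bp. A gap runs from end to start, and clusters join regions up to 10 kb apart. Blocks and bins were assigned by midpoint. Gene spans came with the selection, to 1 kb. RefSeq tables of GRCh38.p14 gave only gene order, in which all 3 genes were found, and promoter sequences, which had none at the IRF8 start. Named regions were the 10 highest-scoring H524 NeuroD1 regions, all H82 NeuroD1 regions, all shared ones and, in either line, the 5 H3K4me3 regions with the highest scores, with those near the genes; others were named after their values were seen. The members, lists and rules were chosen with earlier results of these data known. Intervals are exact Clopper-Pearson 95% or, for medians, exact binomial. Counting steps were tested on simulated data. The work used scipy 1.17.1, pandas 2.3.3 and numpy 2.4.6 in Python 3.11.15, and matplotlib 3.10.9. Alternatives changed score threshold, list length, merging, overlap, block edges, gap measure and joining distance.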

Additional observations from a re-analysis of the deposited data

How the results depend on the processing

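Without the regions below the median score of their list, the block held 54 and 5 NeuroD1 regions in H524 and H82 and 8 and 6 H3K4me3 regions, and the median gap between H524 NeuroD1 regions was 7.57 kb. With the H524 NeuroD1 list limited to 3854 regions, 27 regions remained in the block, 22.2% were shared with H82, the median gap was 14.9 kb, the block had rank 2 and there were 18 clusters. Counting each summit entry gave a median gap of 1.87 kb, and joining regions up to 5 kb or 20 kb apart gave 46 or 9 clusters. Counts of regions fall by construction when regions are left out, and a gap across a removed region lengthens. Summit entries of the same interval have no gap between them, which shortens the median gap. Counts of clusters move with the joining distance. The share of 22.2% stood against 21.7% of the limited list. For the other changes the cause was not tested. The other values of 46 recomputed were within 1.5 times a count or inside the interval of a share or median, among them every share on H3K4me3 of H524 (3.70% to 8.33%) and every median percentile (53.7 to 56.2). No paired analysis was possible because each antibody and line has 1 library. The lists give no depth, so a region missing from a list may be below its threshold.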

Other observations

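Past the end of the block, the NeuroD1 lists had a long gap and the H524 H3K4me3 list did not. After 85997715 on chromosome 16 the next H524 NeuroD1 region began at 87350806, 1350.8 kb past the end of the block, and the next H82 NeuroD1 region began at 87384846. From 86 to 87 Mb H524 had 26 H3K4me3 regions and no NeuroD1 region, and H82 had 2 H3K4me3 regions and no NeuroD1 region. Of 2751 blocks with a region of any list, 2508 held an H524 NeuroD1 region and 1521 an H82 one. Blocks without an H82 NeuroD1 region were thus common. From 87 to 88 Mb H524 had 17 NeuroD1 regions and H82 had 5. On the other side, from 84 to 85 Mb, H524 had 29 NeuroD1 regions and 5 H3K4me3 regions, and H82 had 3 and 8. The region just outside the block on that side, from 84966154 to 84966701, had rank 915 in the H524 NeuroD1 list, against rank 15487 for the first region inside, from 85045148 to 85045407.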
